A study of Mus musculus with 4 samples.

Results

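The genes described here were 10 genes of the secretory and goblet cell lineage of the intestinal epithelium, read for DNA methylation in mouse colon. They were taken by name from the known biology of this lineage, with no threshold on a measured value, although earlier results of these data were known when they were chosen. They comprised 6 genes for transcription factors (Atoh1, Spdef, Gfi1, Klf4, Foxa1 and Foxa2) and 4 genes for goblet cell products or the machinery that makes them (Tff3, Fcgbp, Zg16 and Agr2). They are set beside the 21418 autosomal protein-coding genes of the same annotation, which lists Gfi1 as a processed transcript outside that class. Each gene was followed from 5 kb upstream of its transcription start to its end in 200-bp bins of the mm9 genome. A bin was tested where it held at least 2 CpGs and at least 10 cytosine calls in every library, both strands summed. This gave 512 tested bins for the 10 genes among 4076373 in all autosomes.

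The study sequenced bisulfite-converted genomic DNA from colonic epithelium of C57 mice taken on the day of birth (P0, day 0) and when suckling ended (P21, day 21). The study's methods give a cross of Lgr5-EGFP-CreER knock-in mice with wild-type C57 mice, so both sorted populations came from offspring of the reporter cross. Intestinal stem cells (ISCs) were sorted as Lgr5-EGFP+ cells, and differentiated cells as EpCAM+ cells without Lgr5-EGFP. Mice were pooled at each age. The study's methods give litters for the P0 pool and Lgr5-EGFP+ offspring for the P21 pool, a difference that cannot be separated from age. In all, 1 library was made for each of the 4 groups, here called ISC_P0, Diff_P0, ISC_P21 and Diff_P21. The differentiated population is defined by the absence of a stem cell reporter and mixes absorptive, goblet and enteroendocrine cells, so a level in it is an average over all of them. The study also describes crypts without Lgr5-EGFP in this line, so stem cells without the reporter may be among them, which was not tested. With 1 library a group there were no replicates, and every test below compares libraries and counting error, not conditions.

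The secretory lineage branches from the absorptive lineage when Notch signalling is low and the factor ATOH1 is made. GFI1 and SPDEF act downstream of it, and KLF4 and the forkhead factors FOXA1 and FOXA2 also take part in the maturation of goblet or enteroendocrine cells. Goblet cells fill with mucin granules and secrete, besides mucin, the trefoil peptide TFF3, the mucus protein FCGBP and the lectin ZG16, while AGR2 is a protein disulfide isomerase of the endoplasmic reticulum that is needed for mucin folding. CpG methylation is usually absent from CpG-rich promoters whatever the gene's activity, whereas CpG-poor promoters and distal elements are more often methylated where they are not in use.

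Depth over the 10 genes was higher than elsewhere. The median number of calls in a tested bin of these genes was 77 in ISC_P0, 137 in Diff_P0, 80 in ISC_P21 and 112.5 in Diff_P21, against 55, 81, 58 and 68 over all tested bins. Promoters of 6 epithelial marker genes were at most 12.9% methylated in every library, 4 of the 6 measured leukocyte marker promoters (Ptprc, Cd3e, Cd79a and Laptm5) were above 60% in every library while Coro1a lay between 12.3% and 17.1% and Lcp1 between 28.6% and 39.1%, and the 4 mesenchymal marker promoters lay between 1.17% and 29.1%. Methylation at a promoter is not a measure of expression, and the share of other cell types in each sort was not tested.

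The promoters of the 10 genes, taken as 1 kb on either side of the transcription start, ranged from nearly unmethylated to mostly methylated, and none differed by more than 15 percentage points between libraries in any comparison. Atoh1, the master regulator of the secretory lineage, had a promoter level (the mean over its bins) of 0.626% in ISC_P0, 0.305% in Diff_P0, 0.448% in ISC_P21 and 0.472% in Diff_P21. The other 4 factor genes with CpG-rich promoters, Gfi1, Klf4, Foxa1 and Foxa2, stayed at or below 1.34% in all 4 libraries. Spdef, an ETS-family factor that drives goblet cell maturation, was the exception among the factors, at 38.1%, 38.2%, 40.9% and 39.2% in the same order. The promoters of these genes also differed in sequence in a way that the selection did not use. The 5 nearly unmethylated ones each held between 110 and 179 CpGs in 2001 bp, against a median of 62 over all protein-coding genes, and Spdef held 27.

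The promoters of the 4 product genes were CpG-poor, with 18 to 33 CpGs each, but they did not share 1 level. That of Agr2 was the lowest, at 14.0% in ISC_P0, 14.3% in Diff_P0, 13.4% in ISC_P21 and 11.4% in Diff_P21. Tff3 stood at 53.5%, 55.5%, 58.8% and 56.0%, and Zg16 at 84.2%, 81.4%, 78.4% and 82.0%. The Zg16 promoter thus remained mostly methylated in all 4 libraries, including the differentiated populations that contain goblet cells. Fcgbp had 43.0% in ISC_P0, 48.0% in Diff_P0, 36.4% in ISC_P21 and 33.2% in Diff_P21, a difference between ages of -6.56 points in ISCs (95% interval -12.8 to -0.314) and -14.7 points in differentiated cells (-19.1 to -10.4). With bins shifted by 100 bp these became -2.32 and -6.71 points, and with a minimum of 20 calls the latter was -9.65 points. The all-gene promoter median was between 21.3% and 21.6%. Across all genes, 2.48% of promoters lay more than 15 points apart between ages in ISCs and 2.32% in differentiated cells, and 1.12% at P0 and 1.1% at P21 lay so far apart between the populations, so 0 of 10 is close to this background.

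**Figure D1:**
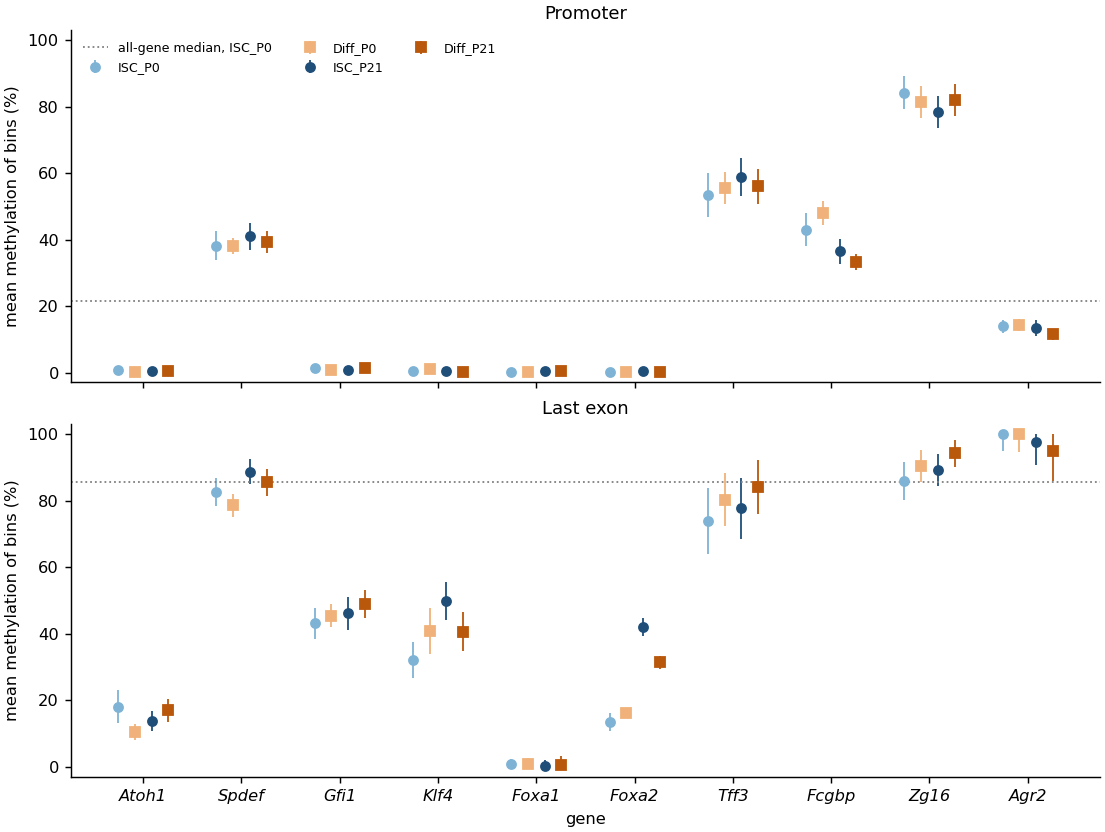
Methylation levels (mean of 200-bp bins, in percent, y axis) of the promoter and of the last exon of each gene (x axis) in the 4 libraries, with 95% intervals from counting error only; the dotted line is the all-gene median in ISC_P0. Promoters of Atoh1, Gfi1, Klf4, Foxa1 and Foxa2 sit near 0 in every library, and the last exon of Foxa2 lies higher in both P21 libraries than in both P0 libraries; Fcgbp has no tested bin in its last exon.

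The unmethylated stretch around each start site differed widely in length. Successive tested bins below 20% methylation were joined, also across short gaps without a tested bin, so the lengths can include unmeasured sequence. The stretch at Atoh1 spanned 3000 to 3600 bp, that at Klf4 4600 to 5200 bp and that at Foxa2 2800 to 3400 bp over the 4 libraries, against an all-gene median of 1200 bp in each. Gfi1 had 7600 to 7800 bp in ISC_P0, ISC_P21 and Diff_P21, and 4600 bp in Diff_P0, where a bin with 21 calls at 23.8% ended the stretch. Foxa1 had the longest of the 10, at 13000 bp in ISC_P0 and ISC_P21 and 14400 bp in Diff_P21. It was 4200 bp in Diff_P0, ended by 1 shallow bin of 13 calls at 23.1%, so the length there turned on a few calls. In the other 3 libraries the whole Foxa1 gene lay inside this stretch, and its last-exon level was at most 0.834% in every library. Agr2 had 1400 bp, slightly above the all-gene median, Tff3 200 bp and Spdef, among the factors, 400 bp in every library, and Zg16 had no bin below the limit at its start. At Fcgbp the stretch measured 400 bp in both P0 libraries, 600 bp in ISC_P21 and 1000 bp in Diff_P21.

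To ask how the 10 loci differed with age, each bin was compared between P21 and P0 by Fisher's exact test on its methylated and unmethylated calls, with Benjamini-Hochberg adjustment over all 4076373 bins. The adjusted p of this test is written as the adjusted exact p. A bin was called where it was below 0.05 and the difference exceeded 15 points. In ISCs, 28 of the 512 bins were called (5.47%), 25 higher and 3 lower at P21, where 2.55% of all bins were called, 1.07% higher and 1.48% lower. In differentiated cells, 29 bins were called (5.66%), 19 higher and 10 lower, against 2.85% of all bins, 0.992% higher and 1.86% lower. With 15 points and no test the shares were 12.9% against 13.5% of all bins in ISCs and 13.1% against 12% in differentiated cells. Without the test the share in the 10 genes was thus not higher in ISCs and slightly higher in differentiated cells. The bins of the 10 genes were also deeper, and whether depth bears on the share of calls was not tested. With calls thinned to the lowest library, 17 bins rose and 0 fell in ISCs, so none of the 3 ISC falls was called at that depth. In differentiated cells 13 rose and 7 fell with thinned calls. The thinned shares were 3.32% against 1.62% of all bins in ISCs and 3.91% against 1.25% in differentiated cells. Between differentiated cells and ISCs, 5 bins were called at P0 (2 higher and 3 lower in differentiated cells) against a background of 0.508%, and 3 at P21 (all lower) against 0.182%. The age comparisons of the 2 populations use separate libraries, although the study describes its pools of mice by age and not by population. Of the called bins, 15 were called in both with the same sign, which is 53.6% of the ISC calls and 51.7% of the differentiated-cell calls, and 0 were called in opposite directions. Over all autosomes, 36.3% of the ISC calls and 32.5% of the differentiated-cell calls were shared with the same sign. The 15 shared bins came from few places, 9 upstream of Foxa1, 5 in the last exon of Foxa2 and 1 in intron 1 of Spdef. No bin of Atoh1 or of Gfi1 was called in any comparison, over 29 and 46 tested bins, and differences too small for the depth of a single bin would not be called. Single uncalled Gfi1 bins reached 38.5 points with age in ISCs (body) and -32.0 points in differentiated cells (upstream). Another reached 43.1 points for differentiated cells minus ISCs at P0 (upstream). Gfi1 has no coding transcript in the annotation used, and its longest transcript set its start, with another start 1693 bp away.

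Factor genes and product genes are given separately. Over the 263 bins of the 6 factor genes, 21 rose and 2 fell with age in ISCs, and 19 rose and 1 fell in differentiated cells. Over the 249 bins of the 4 product genes, 4 rose and 1 fell in ISCs, and 0 rose and 9 fell in differentiated cells. The called bins were 8.75% and 7.6% of the factor bins in ISCs and differentiated cells, and 2.01% and 3.61% of the product bins, which is close to the 2.55% and 2.85% of all bins. By direction, 1.07% of all bins rose and 1.48% fell in ISCs, and 0.992% rose and 1.86% fell in differentiated cells. The 3.61% of product bins called in differentiated cells were all falls. Most of the rises in the factor genes came from 2 places, upstream of Foxa1 and in the last exon of Foxa2. These counts describe neighbouring bins that share molecules, and the difference between the sets of genes was not tested.

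**Figure D2:**
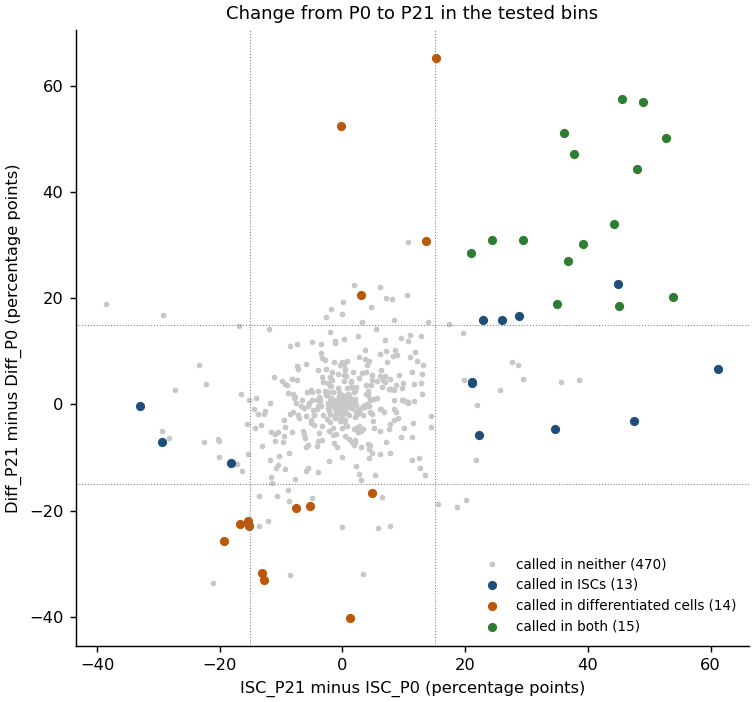
Difference in methylation between P21 and P0, in percentage points, in ISCs (x axis) and in differentiated cells (y axis) for the 512 tested bins of the 10 genes, coloured by the populations in which a bin was called; dotted lines mark 15 points. The 15 bins called in both lie in the upper right, and no bin was called in opposite directions.

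Sequences are given here, as they read in mm9, for Foxa1, Foxa2 and Spdef, the genes with bins called with age in both populations, and for Tff3 and Fcgbp, where methylation fell at or before the start. Each runs 5′ to 3′ on the strand of the gene, with CpGs in capitals. The bins were not ranked by size or p, and where called bins adjoin, the bin with the most CpGs is given. They are an intergenic bin upstream of Foxa1 (chr12:58651201-58651400, minus strand, 16 CpGs), a coding bin in exon 2 of Foxa2 (chr2:147869601-147869800, minus strand, 18 CpGs), a bin in intron 1 of Spdef (chr17:27862601-27862800, minus strand, 7 CpGs), a bin upstream of Tff3 (chr17:31268201-31268400, minus strand, 5 CpGs) and the bin that ends 255 bp before the start of Fcgbp (chr7:28855801-28856000, plus strand, 6 CpGs).
Foxa1 upstream: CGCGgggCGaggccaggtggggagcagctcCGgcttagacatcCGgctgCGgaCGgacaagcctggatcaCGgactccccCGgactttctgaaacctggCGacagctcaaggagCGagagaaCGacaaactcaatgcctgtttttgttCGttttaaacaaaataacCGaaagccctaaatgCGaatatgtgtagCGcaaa
Foxa2 exon 2: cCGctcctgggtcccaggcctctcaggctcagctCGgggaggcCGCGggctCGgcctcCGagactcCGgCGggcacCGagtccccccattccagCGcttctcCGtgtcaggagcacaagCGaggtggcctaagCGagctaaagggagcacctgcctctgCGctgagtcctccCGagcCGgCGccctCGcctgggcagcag
Spdef intron 1: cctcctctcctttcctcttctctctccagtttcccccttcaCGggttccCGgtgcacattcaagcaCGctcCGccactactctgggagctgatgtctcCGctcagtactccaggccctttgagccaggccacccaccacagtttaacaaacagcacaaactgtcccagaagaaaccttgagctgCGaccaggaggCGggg
Tff3 upstream: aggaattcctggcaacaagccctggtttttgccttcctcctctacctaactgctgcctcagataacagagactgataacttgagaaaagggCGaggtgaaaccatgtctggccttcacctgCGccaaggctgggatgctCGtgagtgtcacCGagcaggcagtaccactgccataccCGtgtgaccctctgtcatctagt
Fcgbp upstream: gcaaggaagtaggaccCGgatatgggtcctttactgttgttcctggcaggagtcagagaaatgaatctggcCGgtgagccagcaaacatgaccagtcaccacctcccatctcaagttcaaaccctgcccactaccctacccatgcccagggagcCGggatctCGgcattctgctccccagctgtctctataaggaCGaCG
A search on both strands for the E-box CAGCTG, the forkhead letters TGTTTAC, the CACCC letters of the Klf family and TATAAA found 1 E-box in the Fcgbp bin and 1 CACCC in the Spdef bin, and none of the 4 in the other bins.

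Foxa1 (chr12:58641618-58647108, minus strand), a forkhead factor that opens closed chromatin, showed the broadest difference with age. Its upstream region, from 5 to 1 kb before the start, had a level of 32% in ISC_P0, 25.3% in Diff_P0, 54.8% in ISC_P21 and 54.5% in Diff_P21, a rise of 22.9 points in ISCs (20.4 to 25.3) and 29.3 points in differentiated cells (27 to 31.5). Over all genes, 2.46% and 2.37% of upstream regions lay more than 15 points apart in these comparisons, 1.32% between the populations at P0 and 1.23% at P21, and Foxa1 was the only 1 of the 10 genes to do so. The rise lay in 11 adjoining bins with 77 CpGs, chr12:58650001-58652200, in the intergenic stretch between Foxa1 and Ttc6, and all 11 were called in differentiated cells. Of all calls there, 43.1% were methylated in ISC_P0 (Wilson 95% interval 40.9 to 45.4, 1841 calls), 35.7% in Diff_P0 (34.1 to 37.3, 3334 calls), 84.3% in ISC_P21 (82.6 to 85.8, 2029 calls) and 81.5% in Diff_P21 (80.1 to 82.8, 3082 calls). The P0 and P21 libraries were far apart in both populations. Of the 76 CpGs with at least 5 calls in every library, 73 were higher at P21 in ISCs and 75 in differentiated cells. The run was set by its calls in differentiated cells, so its intervals and CpG counts there are no further test.

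In ISCs, 9 of these 11 bins rose. The printed Foxa1 bin, which held the most CpGs, went from 33.8% to 86.5% in ISCs (adjusted exact p = 1.6e-56) and from 32.5% to 82.6% in differentiated cells (adjusted exact p = 1.6e-89). The edge towards the gene was sharp. The bin next to the run was at 2.8% and 4.92% at P0 and 16.8% and 20.5% at P21 in ISCs and differentiated cells, and every tested bin from there to the start site was at or below 6.06%. On the far side the run reached the limit of the 5 kb window. Beyond it, 23 bins were tested as far as 20 kb from the start, of which 2 rose in differentiated cells and 0 in ISCs, a look that was added after the run was seen. The 2 populations also differed from each other inside the run. At chr12:58650601-58650800 the level was 53.7% in ISC_P0 and 20.2% in Diff_P0 (adjusted exact p = 0.039), and at chr12:58650801-58651000 it was 47.5% and 25.5% (adjusted exact p = 0.012), both lower in differentiated cells. No bin of the run was called between the populations at P21.

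Foxa2 (chr2:147868613-147872705, minus strand), the related forkhead factor, had its rise at the other end of the gene. Its promoter, at the start used here, was at most 0.309% methylated in every library. At the outermost annotated start the promoter was 4.25 points higher at P21 in ISCs and 2.31 points higher in differentiated cells. Its last exon stood at 13.3% in ISC_P0, 16.1% in Diff_P0, 42.0% in ISC_P21 and 31.4% in Diff_P21. The rise was 28.7 points in ISCs (24.8 to 32.5) and 15.3 points in differentiated cells (12.8 to 17.8), and both lie beyond the 15 points that 5.29% and 4.65% of last exons exceeded with age and 2.35% and 2.39% between the populations at P0 and P21. The run of 4 bins at chr2:147869401-147870200, in the coding part of exon 2 1484 to 2283 bp after the start, rose in both populations. Of its calls, 7.64% were methylated in ISC_P0 (5.96 to 9.75, 759 calls), 12.8% in Diff_P0 (11.5 to 14.1, 2562 calls), 46.8% in ISC_P21 (43.3 to 50.4, 743 calls) and 37.2% in Diff_P21 (35.1 to 39.4, 1918 calls). Of its 49 CpGs, 48 were higher at P21 in each population. The printed Foxa2 bin went from 14.2% to 51.0% in ISCs (adjusted exact p = 6.9e-14) and from 14.5% to 41.5% in differentiated cells (adjusted exact p = 1.4e-32).

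The Foxa2 rise began abruptly within the exon. The 2 bins of the last exon nearest the start were at most 9% in all libraries, and the next 4 were the run. Further on, at chr2:147868601-147868800, which holds the 3′ end of the transcript, the level was 30.4% in ISC_P0, 29.7% in Diff_P0, 84.3% in ISC_P21 and 50% in Diff_P21. ISCs stood far above differentiated cells there at P21 (adjusted exact p = 0.0013), and the difference at P0 was -0.77 points. Upstream of Foxa2, 1 bin rose in ISCs, from 53.9% to 76.9% at chr2:147873601-147873800 (adjusted exact p = 0.039), and was at 44.7% and 60.6% in differentiated cells, which did not pass the test. That bin lay in a methylated block between 2 unmethylated ones, and another annotated start of Foxa2, 1021 bp upstream of the start used here, lies between it and that bin.

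Klf4 (chr4:55540013-55545347, minus strand), a zinc-finger factor of post-mitotic goblet cells, rose in ISCs alone among the calls. Its body level was 11.8% in ISC_P0, 12.7% in Diff_P0, 19.5% in ISC_P21 and 17.1% in Diff_P21. That was a rise of 7.66 points in ISCs (3.80 to 11.5) and 4.43 points in differentiated cells (1.42 to 7.43). With single CpGs the ISC rise was 2.79 points. An uncalled body bin was 30.6 points higher at P21 in differentiated cells. The intron 4 run at chr4:55541801-55542200 had 46.6% of calls methylated in ISC_P0 (40.2 to 53.0), 54.6% in Diff_P0 (49.6 to 59.5), 74.8% in ISC_P21 (70.0 to 79.0) and 54.4% in Diff_P21 (49.5 to 59.1). ISC_P21 lay above the other 3 libraries, whose intervals overlapped. In its bin nearer the start, chr4:55542001-55542200, the ISC rise of 34.6 points had an adjusted exact p of 4.0e-07, the differentiated cells were 4.54 points lower at P21, and a binomial z test of the difference between these age changes gave an adjusted p of 0.000265. In the coding part of exon 5, chr4:55540801-55541000 had 12.2% in ISC_P0, 30.8% in Diff_P0, 59.7% in ISC_P21 and 27.7% in Diff_P21, from 41 to 67 calls. The last exon as a whole was 32.1%, 40.9%, 49.8% and 40.6%, a rise of 17.7 points in ISCs (9.83 to 25.6) that dropped to 8.16 points when calls were pooled and to 4.34 points with bins shifted by 100 bp.

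**Figure D3:**
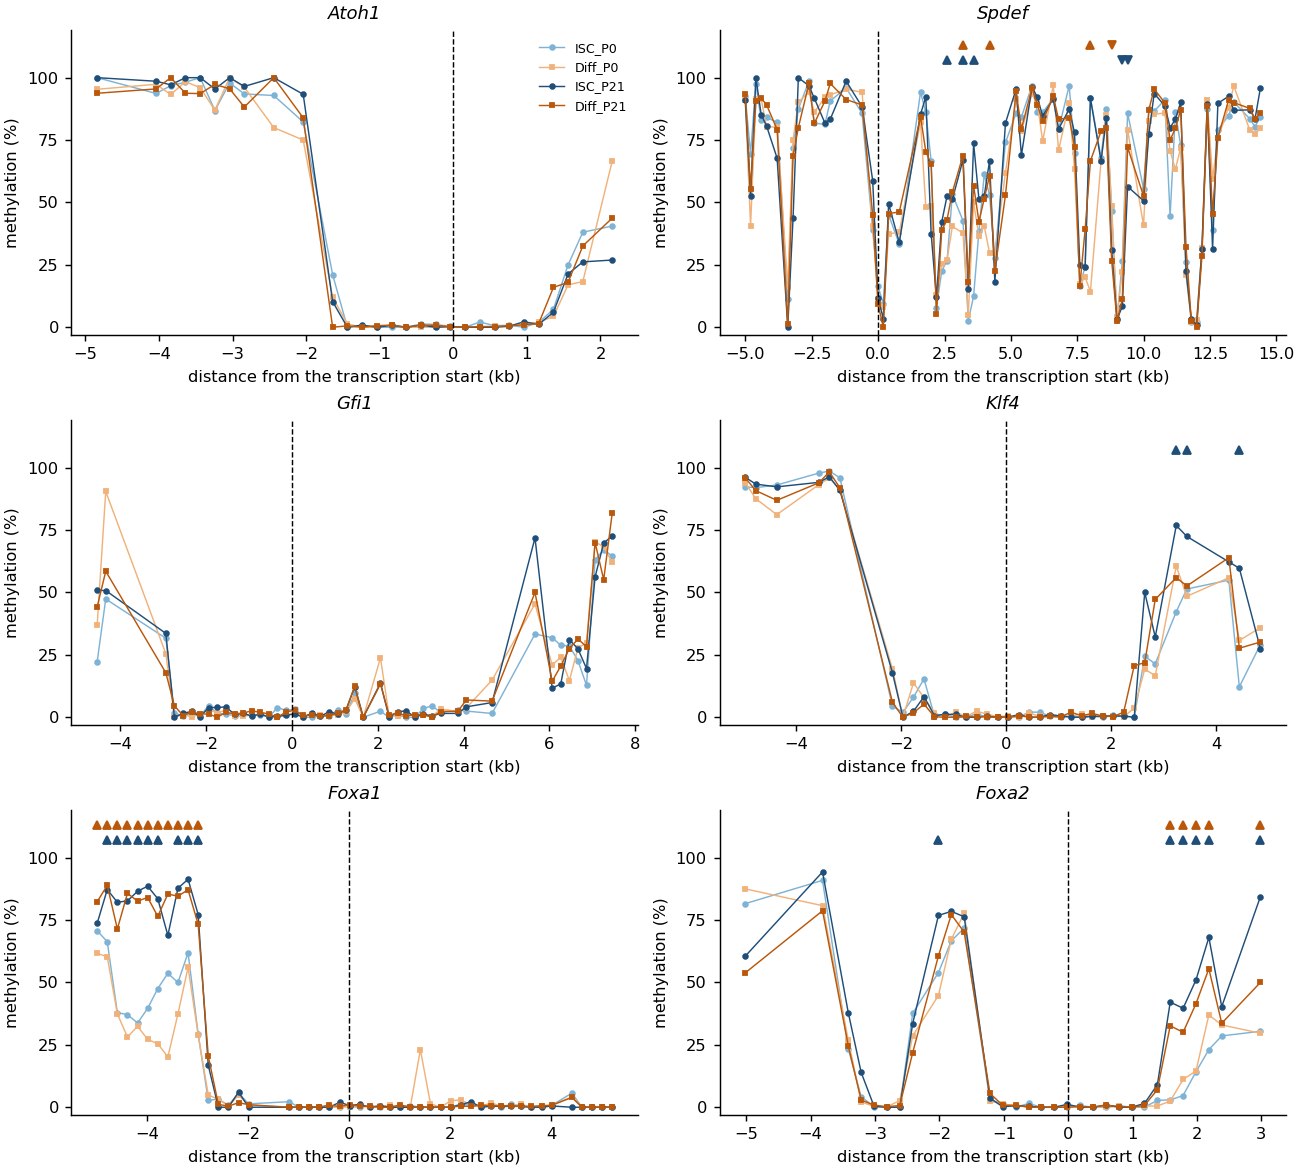
Methylation level (percent, y axis) of each tested 200-bp bin against its distance from the transcription start (kb, x axis, dashed line at 0) for the 6 transcription factor genes in the 4 libraries; triangles above the curves mark bins called between P21 and P0, pointing up for a rise and down for a fall, in blue for ISCs and orange for differentiated cells. Foxa1 shows rises in both populations from 3 to 5 kb before the start, Foxa2 in its last exon, and Atoh1 and Gfi1 show none.

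Spdef (chr17:27851297-27865896, minus strand) had all of its calls inside the gene body, in both directions. Its body level was 58.4% in ISC_P0, 54.1% in Diff_P0, 60.7% in ISC_P21 and 59.7% in Diff_P21, a difference between ages of 2.33 points in ISCs (0.0212 to 4.64) and 5.55 in differentiated cells (3.55 to 7.56). With single CpGs these were 0.351 and 3.02 points, and with a minimum of 20 calls the ISC difference was 0.382 points. Within intron 1 the printed bin, with its middle 3195 bp after the start, held 42.7% in ISC_P0 (185 calls), 37.7% in Diff_P0 (371), 67.1% in ISC_P21 (213) and 68.8% in Diff_P21 (250). It rose in ISCs (adjusted exact p = 0.00017) and in differentiated cells (adjusted exact p = 1.4e-11), and all 7 of its CpGs were higher at P21 in both. Intron 1 held 2 other bins that rose in ISCs and 2 others that rose in differentiated cells. Of these, chr17:27862201-27862400 rested on 16 calls in ISC_P0 and 19 in ISC_P21. The bin at chr17:27857801-27858000 rested on 21 calls in each differentiated-cell library. Around exon 2 the direction turned. At chr17:27857001-27857200 the levels were 46.5%, 48.7%, 31.0% and 26.7% in the usual order, a fall of 22.0 points in differentiated cells (adjusted exact p = 5.4e-07) with 15.4 points less in ISCs (adjusted exact p = 0.073). In intron 2, 2 adjoining bins fell in ISCs, from 43.4% to 25.8% of their calls, and the differentiated cells had 37.7% and 26.4% there. Neither ISC fall was called with thinned calls.

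The largest difference between the populations at P0 was also in Spdef. At chr17:27857801-27858000 the level was 91.9% in ISC_P0 from 37 calls and 14.3% in Diff_P0 from 21 calls (adjusted exact p = 2.0e-05), and at P21 it was 91.7% from 12 calls and 66.7% from 21 calls. This bin is shallow in all libraries. Differentiated cells rose there with age (adjusted exact p = 0.039), and the difference between the age changes had an adjusted p of 0.13 in the binomial z test.

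Among the product genes, Fcgbp (chr7:28856255-28905881, plus strand), which encodes an IgG Fc-binding mucus protein, lost methylation at its start. Over the 600 bp at chr7:28855801-28856400, which hold 2 bins called in differentiated cells and an uncalled bin between them, from 454 bp before to 145 bp after the start, 17.0% of calls were methylated in ISC_P0 (13.3 to 21.3, 336 calls), 19.2% in Diff_P0 (16.2 to 22.6, 583 calls), 3.33% in ISC_P21 (1.76 to 6.21, 270 calls) and 1.61% in Diff_P21 (0.877 to 2.94, 621 calls). Both P21 libraries lay below both P0 libraries without overlap of their intervals. All 14 CpGs were lower at P21 in differentiated cells, and in ISCs 11 were lower, 1 higher and 2 equal. The stretch was set by its calls in differentiated cells, so its intervals and CpG counts there are no further test. The printed bin fell from 26% to 3.0% in differentiated cells (adjusted exact p = 6.6e-14), and in ISCs, where it stood at 22.4% and 7.25%, it did not pass the test (adjusted exact p = 0.13). The bin over the start site fell from 19.4% to 0 of 123 calls in differentiated cells (adjusted exact p = 4.6e-05), a count of 0 that allows, at 3 calls of the total, a level of up to 2.44%, with a Wilson upper bound of 3.03%. Differentiated cells fell in 4 other Fcgbp bins, 2 of them further upstream and 2 within the gene.

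In the body of Fcgbp, a long gene of 20 exons with 148 tested body bins, the level was between 74.4% and 76.0% in the 4 libraries. Isolated bins differed there. At chr7:28887401-28887600 the level was 28.2% in ISC_P0 and 49.7% in Diff_P0 (adjusted exact p = 1.1e-06), and 31.2% and 35.4% at P21. This bin held 394 to 485 calls on 3 CpGs, where the median tested bin of these genes held 77 to 137 calls. The source of this unusual depth was not tested. Another bin, at chr7:28891801-28892000, rose in ISCs from 74.6% to 96.9% (adjusted exact p = 0.003) and stood at 93.9% and 88.1% in differentiated cells. The predicted gene Gm10935 overlaps the Fcgbp window, and calls there cannot be assigned to 1 of the 2 genes.

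Tff3, the trefoil peptide of goblet cells, lost methylation upstream of its start (gene at chr17:31262251-31266591, minus strand). At chr17:31268001-31268400, from 1809 to 1410 bp before the start, 27.6% of calls were methylated in ISC_P0 (22.7 to 33.1, 279 calls), 32.5% in Diff_P0 (28.5 to 36.8, 489 calls), 11.7% in ISC_P21 (8.48 to 15.9, 291 calls) and 5.2% in Diff_P21 (3.49 to 7.69, 442 calls). Both bins fell in differentiated cells, the printed 1 from 34.5% to 2.68% (adjusted exact p = 4.1e-18). In ISCs that bin went from 21.4% to 8.2% (adjusted exact p = 0.031), a difference of 13.2 points that lies under the 15-point limit. The bin just upstream was between 6.12% and 6.78% in all 4 libraries, so the low stretch was wider at P21 than at P0. All 8 CpGs of the run were lower at P21 in differentiated cells, and 7 in ISCs. The promoter of Tff3 differed by 5.29 points between ages in ISCs (-3.38 to 14.0) and 0.514 in differentiated cells (-6.66 to 7.69), and with pooled calls these were -2.43 and 8.17 points. Its bin over the start, at 5.41%, 17.1%, 12.5% and 10%, rested on 37 to 70 calls. The 300-bp Tff3 promoter holds 1 TATAAA, as do 13.6% of all such promoters.

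Zg16, a lectin that binds bacterial cell walls, had upstream, promoter, body and last-exon levels of at least 74.7% in every library, although single bins lay lower. Its 1 called bin was upstream of the gene (chr7:134193670-134195491, minus strand), at chr7:134198601-134198800, with 38.5% in ISC_P0, 45.7% in Diff_P0, 19.2% in ISC_P21 and 20% in Diff_P21, a fall in differentiated cells (adjusted exact p = 0.0014) while the difference in ISCs did not pass the test (adjusted exact p = 0.2). It holds 2 CpGs, of which 1 was lower and 1 higher at P21 in ISCs, while 2 of 2 were lower in differentiated cells. The gene body outside promoter and last exon was 1 bin of 4 CpGs, at 88.0%, 93.0%, 94.4% and 75.5%, from 49 to 57 calls, and its difference between ages of -17.5 points in differentiated cells (-32 to -2.91) was not called in the bin test and was -5.30 points with bins shifted by 100 bp. In this body bin the difference of differentiated cells minus ISCs at P21 was -18.9 points (-33.4 to -4.50), which was also not called. Over all genes, 1.26% and 1.08% of bodies lay more than 15 points apart with age, and 0.468% and 0.4% between the populations at P0 and P21. Agr2 (chr12:36719494-36730674, plus strand) differed at 3 bins near its 3′ end. Intron 7 held 2 bins that rose in ISCs, from 48.9% to 93.8% (adjusted exact p = 0.002) and from 59.6% to 88.5% (adjusted exact p = 0.038), where differentiated cells had 65.2% and 88.0%, and 70.0% and 86.7%. The former bin held 45 calls in ISC_P0, 32 in ISC_P21, 23 in Diff_P0 and 25 in Diff_P21, and the latter 52 to 70 calls. Next to them, chr12:36729401-36729600 had 56.9% in ISC_P21 and 6.67% in Diff_P21 (adjusted exact p = 0.0069), with 38.2% and 25.9% at P0, from 27 to 51 calls. Around its start Agr2 was unmethylated in all libraries, at 0%, 2.06%, 0% and 1.46% in the bin over the start site.

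**Figure D4:**
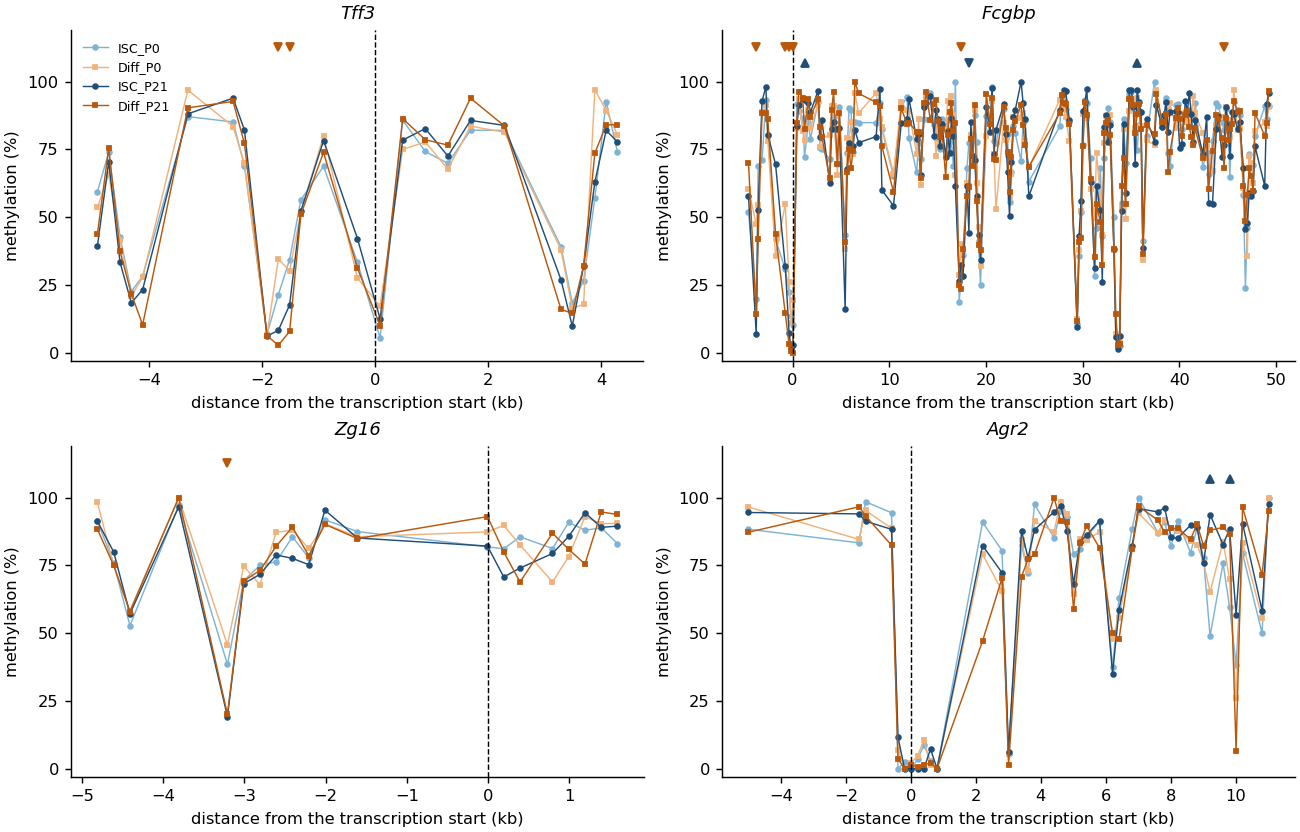
Methylation level (percent, y axis) of each tested 200-bp bin against its distance from the transcription start (kb, x axis, dashed line at 0) for the 4 product genes in the 4 libraries, with triangles for called bins as in the plot of the factor genes. The falls in differentiated cells sit upstream of Tff3, at and before the start of Fcgbp and upstream of Zg16.

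Side by side, the stretches that hold called bins differed in how far they moved and in which population. Foxa1 and Foxa2 rose by 41.1 and 39.2 points in ISCs and by 45.8 and 24.5 points in differentiated cells, as shares of all calls in the run. The corresponding differences were -27.3 and -17.6 points in differentiated cells and -15.9 and -13.6 points in ISCs at Tff3 and Fcgbp. The stretches were picked by their calls, so these sums, and the intervals and CpG counts given above for them, describe them and are no further test. The test of the difference between the age changes of the populations called 7 of the 512 bins (1.37%), where it called 0.497% of all bins. They were 2 bins each of Klf4, Foxa2 and Fcgbp and 1 of Foxa1, and none of Tff3, Spdef, Zg16 or Agr2.

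**Figure D5:**
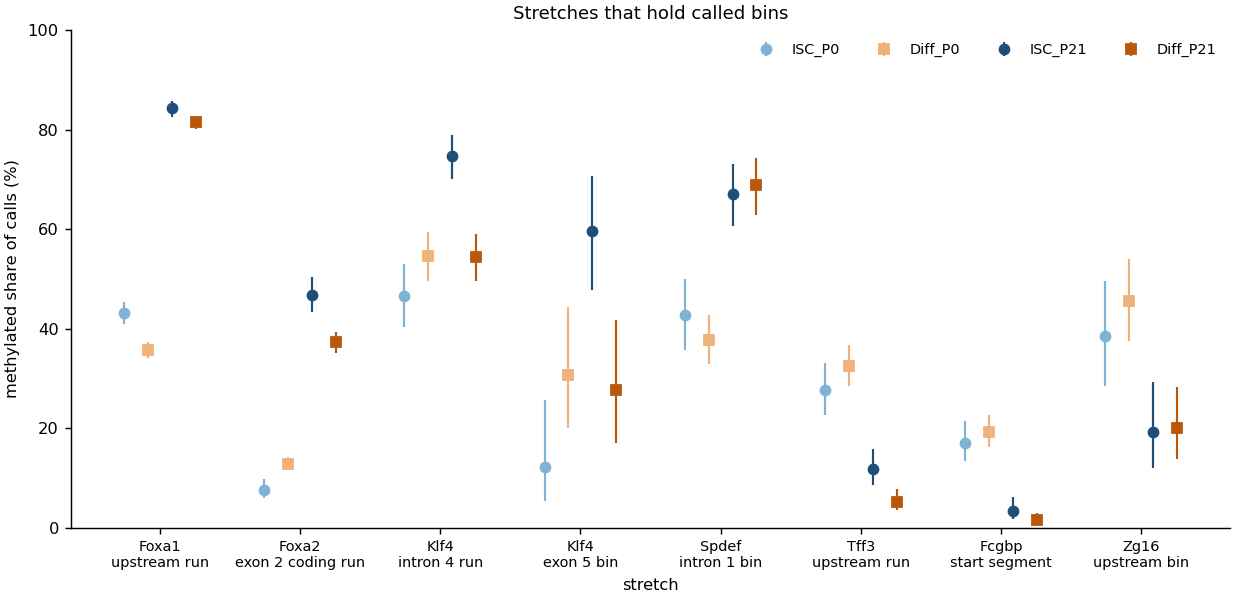
Share of calls that were methylated (percent, y axis) in 8 stretches that hold called bins (x axis) in the 4 libraries, that of Fcgbp with an uncalled bin between called ones, with Wilson 95% intervals for counting error. Foxa1, Foxa2 and Spdef lie higher in both P21 libraries, Klf4 in ISC_P21 alone, and Tff3, Fcgbp and Zg16 lower in both P21 libraries. At Zg16 the intervals of ISC_P0 and ISC_P21 overlap.

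Other genes of the pathway were read the same way, as a list of 24 genes for secretory cell fate, mucus and granule proteins, of which 23 had a measured promoter. Their promoter levels had a median between 20.1% and 21.7% in the 4 libraries. Among its Notch ligands and transcription factors, Dll1, Dll4, Hes1, Sox9, Sox4 and Xbp1 were at or below 1.19% throughout. Creb3l1 lay between 2.14% and 6.74%, Creb3l4 between 10.1% and 16.6%, Gfi1b between 12.8% and 16.0% and Bhlha15 between 46.4% and 49.9%. Muc2, the main gel-forming mucin of the colon, was at 51.1% in ISC_P0, 50.7% in Diff_P0, 42.2% in ISC_P21 and 42.0% in Diff_P21. Of the 23 promoters, 1 lay more than 15 points apart between ages in ISCs and 2 in differentiated cells, where 2.48% and 2.32% of all promoters did. Agr3, the neighbouring paralogue of Agr2, had 62.8%, 76.2%, 43.7% and 41.2%, lower at P21 by 19.1 points in ISCs and 35.0 points in differentiated cells. Clca3, a goblet cell granule protein, had 52.5%, 43.4%, 67.0% and 61.0%, higher by 17.5 points in differentiated cells and by less than the limit in ISCs. Over the 1545 tested bins of the list, 19 rose and 21 fell in ISCs, and 23 rose and 46 fell in differentiated cells, against 1.07% and 1.48% of all bins in ISCs and 0.992% and 1.86% in differentiated cells.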

How the data were processed

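Whole-genome bisulfite sequencing gave 4 libraries. Per the labels, reads were aligned with Bismark and Bowtie to mm9, with no versions given in the sources used here. The deposited files list, for each cytosine position, the count of all calls, the count of methylated calls and their ratio as a fraction. The fraction was checked against the counts and not used further. Libraries held between 1023427645 and 1188114423 calls, and 0.465% to 0.850% of the listed positions were not at a CpG of the reference, which has the same build, and were left out. PCR duplicates may remain among calls, so intervals and p-values cover counting error only.

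Both strands of a CpG were summed, and CpGs were binned in 200 bp. Bins needed 2 CpGs and 10 calls in every library. Fisher's exact test (two-sided) was adjusted over all autosomal bins by Benjamini-Hochberg, and a bin was called at an adjusted p below 0.05 and more than 15 points. A binomial z test compared the age changes of the populations. Intervals are 95%, Wilson for shares of calls. Region levels are means of bin levels, as in the study's definition, and were given with no test. Gene models came from GENCODE M1 (transcript with the longest coding sequence). The 10 genes and all gene lists were chosen with earlier results of these data known. Named bins are those called in a comparison. The tests were checked on simulated data. Alternatives were a minimum of 20 calls, 1 CpG, shifted bins, no test, 30 points, thinned calls, pooled calls, single CpGs, a promoter of 500 bp and the outermost transcript. Python 3.11.15 was used with numpy 2.4.6, pandas 2.3.3, scipy 1.17.1, numba 0.67.0 and statsmodels 0.14.6.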

Additional observations from a re-analysis of the deposited data

Results flagged for a closer look

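The change from P0 to P21 differed between differentiated cells and ISCs, by a binomial z test of the difference adjusted over all bins, in 7 of the 512 bins, and all values below are differentiated cells minus ISCs. At Klf4 the difference was -50.6 points at chr4:55540801-55541000 in exon 5 (binomial z test, adjusted p = 0.0202, 41 to 67 calls) and -39.1 points at chr4:55542001-55542200 in intron 4 (binomial z test, adjusted p = 0.000265), with a rise called in ISCs alone in both. At Foxa1 it was +50.03 points at chr12:58650601-58650800 (binomial z test, adjusted p = 0.00739), where differentiated cells started from 20.2% and ISCs from 53.7%, and reached 85.4% and 68.9%. At Foxa2 it was -33.6 points at chr2:147868601-147868800, over the 3′ end of the transcript (binomial z test, adjusted p = 0.0254), and -16.1 points at chr2:147869801-147870000 in the coding part of exon 2 (binomial z test, adjusted p = 0.0323), both with a rise in each population that was greater in ISCs. At Fcgbp it was -17.3 points at chr7:28887401-28887600 (binomial z test, adjusted p = 0.0431) and -28.0 points at chr7:28891801-28892000 (binomial z test, adjusted p = 0.0302), with ISCs higher at P21 than at P0 and differentiated cells lower in both. The former bin was unusually deep, with 394 to 485 calls on 3 CpGs. Each library is a single pool, so these are differences between libraries.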

How the results depend on the processing

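No level difference beyond 15 points in the upstream, promoter, body or last-exon regions of the 10 genes reversed under the alternatives run on it. With no test, 15 points alone gave 548317, 488949, 430409 and 385937 bins over all autosomes for age in ISCs, age in differentiated cells, P0 and P21, and 66, 67, 41 and 38 bins of the 10 genes, which are 12.9%, 13.1%, 8.01% and 7.42% of their bins against 13.5%, 12%, 10.6% and 9.47% of all bins. A limit of 30 points gave 49588, 43221, 7446 and 2966 bins over all autosomes, and 17, 16, 3 and 2 bins of the 10 genes. In the same order these are 3.32%, 3.12%, 0.586% and 0.391% of their bins against 1.22%, 1.06%, 0.183% and 0.0728% of all bins. Thinning every library to the lowest depth of each bin gave 66150, 51065, 3644 and 1529 bins over all autosomes, and 17, 20, 2 and 3 bins of the 10 genes. The latter are 3.32%, 3.91%, 0.391% and 0.586% of their bins against 1.62%, 1.25%, 0.0894% and 0.0375% of all bins. A minimum of 20 calls, 1 CpG or shifted bins kept every count within 1.5 times. Among region differences, 24 of 148 moved beyond their counting interval with pooled calls, 13 of 148 with single CpGs, 1 of 148 with 20 calls, 7 of 144 with shifted bins and 8 of 116 with the outermost transcript. Upstream regions were added to these after the data were seen. The rises upstream of Foxa1, 22.9 and 29.3 points in ISCs and differentiated cells, were 33.2 and 33.6 points with pooled calls and 31.8 and 35.8 points with single CpGs. Others that moved included the Fcgbp promoter in differentiated cells, -14.7 points, at -9.65 with 20 calls and -6.71 with shifted bins, and the Klf4 last exon described above. The rise at the last exon of Foxa2 was 33.1 and 18.8 points with shifted bins. No paired analysis was possible because each group had 1 library.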
